A study of Homo sapiens with 10 samples.

Results

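The transcripts of 10 genes that take up, store, export and sense iron were followed in HepG2 cells under tunicamycin. The members were the rows of the count table whose gene symbol was HAMP, TFRC, TFR2, FTH1, FTL, SLC40A1, SLC11A2, CP, IREB2 or TMPRSS6, and each symbol matched 1 of the 32738 genes in the table. HepG2 is a human hepatoma line that keeps many traits of hepatocytes, and it stands here as a single line for the liver cell. Both groups were the same HepG2 cells. The control (untreated) cells were kept in regular growth medium, and the tunicamycin-treated cells received 2 µg/ml tunicamycin for 17 h. Tunicamycin blocks N-linked glycosylation, so that unfolded glycoproteins build up in the endoplasmic reticulum (ER) and set off the unfolded protein response. RNA was read by sequencing of transcript 3′ ends, with 5 libraries per condition, 1 pair from each of 5 experiments on separate days.

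Hepatocytes are the body's main iron store and the source of the hormone that sets iron entry into blood. Iron bound to transferrin enters through transferrin receptors, crosses the endosomal membrane through SLC11A2 (DMT1), is stored inside ferritin shells made of FTH1 and FTL chains, and leaves through SLC40A1 (ferroportin), helped by the ferroxidase CP (ceruloplasmin). Inside the cell, iron regulatory proteins bind hairpins called iron-responsive elements (IREs) when iron is scarce: binding at the 5′ end of an mRNA blocks its translation, and binding in the 3′ untranslated region (UTR) protects the mRNA from decay. Outside the cell, hepcidin (HAMP) binds ferroportin and causes its loss from the surface, and TMPRSS6 holds hepcidin expression down.

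The hairpin sequences are shown because members of this group are known for them, and because their place in the mRNA separates ferritin and ferroportin from the transferrin receptor. The search was strict and does not find every known element: SLC11A2 is known to have transcripts with a 3′ UTR element, and no window was found in it. The letters searched were a C, the 5 upper-stem bases NNNNN, the loop CAGTGN and again NNNNN, with all 5 upper-stem bases paired (G with T allowed), any loop base but G in the last place and at least 3 of 5 lower-stem bases paired. The search ran on the transcript strand only, through the UTRs of protein-coding transcripts of GENCODE release 44 on GRCh38. The counts themselves were made on hg19, for which no coordinate is given. Each sequence has 27 bases, written 5′ to 3′ on the transcript strand as DNA, with the 6-base loop in capitals.
FTH1 5′ UTR, chr11:61967575-61967601, minus strand: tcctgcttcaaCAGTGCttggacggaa
FTL 5′ UTR, chr19:48965336-48965362, plus strand: tcttgcttcaaCAGTGTttggacggaa
SLC40A1 5′ UTR, chr2:189580662-189580688, minus strand: aacttcagctaCAGTGTtagctaagtt
TFRC 3′ UTR, chr3:196050980-196051006, minus strand: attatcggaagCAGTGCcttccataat
TFRC 3′ UTR, chr3:196050576-196050602, minus strand: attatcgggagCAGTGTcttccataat
TFRC 3′ UTR, chr3:196050511-196050537, minus strand: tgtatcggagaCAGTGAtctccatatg
TFRC 3′ UTR, chr3:196050464-196050490, minus strand: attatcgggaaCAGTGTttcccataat

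The FTH1 and FTL windows differed at 2 of 27 positions. TFRC held 4 windows, all in its 3′ UTR, while FTH1, FTL and SLC40A1 held theirs in the 5′ UTR. A match was rare among genes at large: of 19702 protein-coding genes, 0.0508% held one in a 5′ UTR and 0.142% in a 3′ UTR. The other 6 members held none, which says only that no window in their annotated UTRs met both the letters and the pairing rules. A match is a description of the sequence, and no binding was measured here.

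Libraries held 4242538 to 4888292 counts in control cells and 2234682 to 5029864 in tunicamycin-treated cells. The lowest total was that of tunicamycin replicate 5, followed by tunicamycin replicate 4 (3567316). These are the 2 shallowest libraries, so the fits without them left out tunicamycin libraries only. Mitochondrial transcripts took 22.7 to 25.2% of control counts and 18.3 to 28.8% of tunicamycin counts. All 6 ER stress genes checked rose with tunicamycin, from SDF2L1 at 1.71 to DNAJB9 at 3.76 on the log2 scale, and HSPA5, the main ER chaperone, rose by 2.97. The 8 hepatocyte markers were all detected, and their summed level was 61240 to 77069 normalized counts in control and 48069 to 53874 in tunicamycin libraries. Of these markers 4 fell (APOA1, APOB, TTR and FGB) and 4 did not pass the test (ALB, SERPINA1, AFP and HNF4A). Of 4 leukocyte and macrophage markers, PTPRC, CD163 and MARCO were at 0 in every library and LYZ was read, with a summed level of 1132 to 1613 in control and 1226 to 2036 in tunicamycin libraries. Erythroid, stellate and endothelial markers each summed to at most 4.72 normalized counts in any library, with HBB and ALAS2 at 0 throughout.

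A normalized count is a gene's count in a library, scaled for library size and composition to the mean of the 10 libraries. On this scale the ferritin heavy chain transcript rose and the ceruloplasmin transcript fell with tunicamycin. FTH1 averaged 1894 ± 550 normalized counts in control and 3205 ± 221 in tunicamycin libraries, and CP averaged 38.5 ± 8.98 and 11.6 ± 7.39 (SD, n = 5 each). The other 7 tested members did not pass the test, among them the ferritin light chain, both transferrin receptors, DMT1, ferroportin and IREB2. Hepcidin reached at most 3 counts in any library. A gene passed where edgeR's quasi-likelihood test gave a Benjamini-Hochberg adjusted p under 0.05 over the 12733 genes tested, of which 34.2% passed (17.6% higher and 16.6% lower with tunicamycin). With 1 higher and 1 lower of 9 tested members, the count of calls was not above this background. The median log2 fold change of the 9 tested members was -0.21, beside -0.0033 for all genes tested. Within single replicate pairs the median of the members ranged from -0.29 to 0.31 (SD 0.23). Whether the list as a whole shifted was not tested. With library size as the only scaling, 40.8% of all called genes were higher, beside 51.4% with the composition scaling used here. With the replicate number as a block, 2 members were higher and 2 lower, FTL and IREB2 being added. Counts are relative to all RNA in a library, so a change in RNA per cell and a change in the number of cells that express a gene cannot be told apart.

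**Figure D1:**
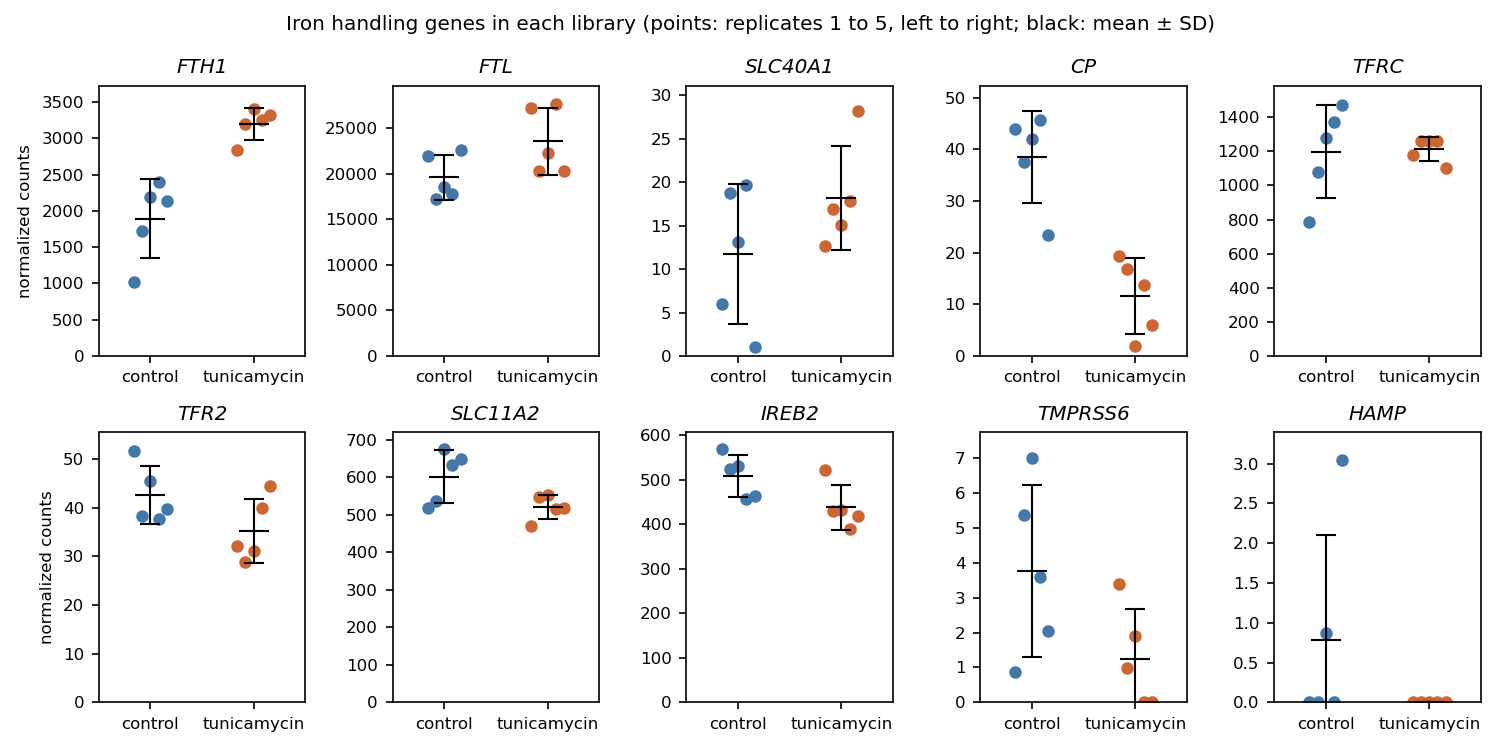
Normalized counts (vertical axes, each from 0) of the 10 iron handling genes in the 5 control (blue) and 5 tunicamycin (orange) libraries. Points are replicates 1 to 5 from left to right, and black bars are the mean and SD, with lower bars that would pass below 0 ending at the axis. FTH1 and CP are the members whose groups do not overlap, and HAMP is at 0 in 8 of 10 libraries.

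FTH1 encodes the ferritin heavy chain, the subunit with ferroxidase activity that turns ferrous iron into the stored form. Its normalized counts in control replicates 1 to 5 were 1016, 1718, 2197, 2398 and 2141. In tunicamycin replicates 1 to 5 they were 2834, 3202, 3413, 3252 and 3321. Every tunicamycin library lay above every control library, and the lowest value by far was control replicate 1. Groups did not overlap in 23.5% of all genes tested (11.7% with tunicamycin higher). FTH1 rose by 0.76 on the log2 scale (SE 0.16, adjusted p = 0.00102 by edgeR's quasi-likelihood test), a 1.69-fold difference in means, and it was higher in 5 of 5 replicate pairs. An exact two-sided permutation test over libraries, without the pairs, gave p = 0.00794, the smallest that this unpaired test can give. The rise ranked at the 89.9th percentile of log2 fold changes over all genes tested. Within pairs it ranged from 0.44 to 1.48 on the log2 scale, the largest being that of replicate 1. Without control replicate 1 the log2 fold change was 0.60 (adjusted p = 6.42e-05 by edgeR). The coefficient of variation was 29.0% among control libraries and 6.91% among tunicamycin libraries, beside 2.19% and 1.88% from counting error alone. The gene (ENSG00000167996) lies at chr11:61959718-61967634 on the minus strand of GRCh38, and its exons overlap BEST1 on the other strand. BEST1 had 4 counts in all control libraries together and 22 in all tunicamycin libraries together, beside 10401 and 14209 for FTH1. On these few counts BEST1 also passed as higher (log2 fold change 2.55, adjusted p = 0.0141 by edgeR's quasi-likelihood test).

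FTL encodes the ferritin light chain, which helps the iron core to form inside the shell. It was by far the most abundant member, at 0.406 to 0.640% of all counts in a library. Control replicates 1 to 5 held 21938, 17248, 18559, 17716 and 22552 normalized counts. Tunicamycin replicates 1 to 5 held 27201, 20258, 22261, 27672 and 20321. The groups overlapped, with 3 control libraries under all tunicamycin libraries and 2 of the tunicamycin libraries above all controls. The means were 19602 ± 2467 and 23543 ± 3649 (SD, n = 5 each), and FTL was higher in 4 of 5 pairs. The log2 fold change was 0.26 (SE 0.11, adjusted p = 0.0657 by edgeR's quasi-likelihood test). An exact two-sided permutation test without the pairs gave p = 0.0873 for FTL. With the replicate number as a block the log2 fold change was 0.26 (adjusted p = 0.0196 by edgeR) and FTL passed. It also passed without control replicate 1 (adjusted p = 0.0283 by edgeR), control replicate 5 (0.0403), tunicamycin replicate 2 (0.0375) or tunicamycin replicate 5 (0.0416), and without both libraries of replicate 1 (0.0385), a setting chosen after seeing the data. FTL did not pass without control replicate 2 (adjusted p = 0.163 by edgeR), 3 (0.115) or 4 (0.121). Nor did it pass without tunicamycin replicate 1 (0.140), 3 (0.0796) or 4 (0.154), or without the 2 shallowest libraries (0.105), by the same test. With library size as the only scaling the log2 fold change was 0.18 (adjusted p = 0.218 by edgeR). The gene (ENSG00000087086) lies at chr19:48965309-48966879 on the plus strand of GRCh38.

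Both ferritin genes have near-identical processed pseudogenes, and how reads that match several places were counted is not given in the sources used here. Counts for FTH1 and FTL are uncertain to that extent. The table held no row with an FTH1P or FTLP symbol. The related row FTHL17 held 0 counts in all libraries, which says nothing about reads shared with pseudogenes.

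The light to heavy chain ratio was taken from the counts of each library, where scaling cancels. In control replicates 1 to 5 FTL exceeded FTH1 by 21.6, 10.0, 8.45, 7.39 and 10.5 times. In tunicamycin replicates 1 to 5 the ratio was 9.60, 6.33, 6.52, 8.51 and 6.12. The ranges overlapped, and control replicate 1 stood far above the other libraries. The means were 11.6 ± 5.73 in control and 7.41 ± 1.55 in tunicamycin-treated cells (SD, n = 5 each). The kit primes at the poly(A) tail and gives about 1 fragment per transcript whatever its length, so counts of different genes were compared without division by length.

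**Figure D2:**
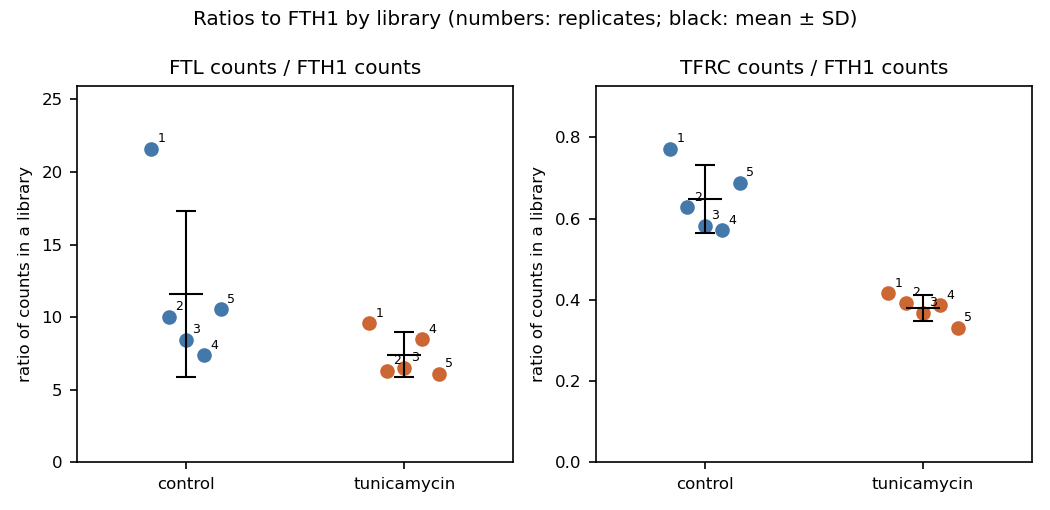
Ratio of FTL to FTH1 counts (left) and of TFRC to FTH1 counts (right) in each library, with the vertical axes from 0. Points are libraries numbered by replicate, and black bars are the mean and SD of 5. The FTL ratio overlaps between conditions, with control replicate 1 at 21.6, while the TFRC ratio is 0.572 to 0.772 in control and 0.332 to 0.417 in tunicamycin libraries.

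TFRC encodes transferrin receptor 1, the main route of transferrin-bound iron into most cells. It was the member in which the 3′ UTR search found windows. Control replicates 1 to 5 held 784, 1080, 1281, 1371 and 1474 normalized counts. Tunicamycin replicates 1 to 5 held 1181, 1259, 1259, 1260 and 1102. The tunicamycin libraries lay close together inside the range of the controls, of which replicate 1 was the lowest. The means were 1198 ± 273 and 1212 ± 70.5 (SD, n = 5 each). The log2 fold change was 0.02 (SE 0.13, adjusted p = 0.925 by edgeR's quasi-likelihood test), with 2 of 5 pairs higher. Its direction was not fixed: it was -0.10 without control replicate 1, -0.02 without control replicate 2 and -0.065 with library size as the only scaling. The coefficient of variation among controls was 22.8%, and 5.82% among tunicamycin libraries. The gene (ENSG00000072274) lies at chr3:196012511-196082153 on the minus strand of GRCh38, and its exons overlap ENSG00000286168 on the other strand.

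Within a library, TFRC stood lower against FTH1 with tunicamycin. The TFRC to FTH1 ratio was 0.772, 0.628, 0.583, 0.572 and 0.689 in control replicates 1 to 5. It was 0.417, 0.393, 0.369, 0.387 and 0.332 in tunicamycin replicates 1 to 5. The ranges did not overlap, and the means were 0.649 ± 0.0829 and 0.380 ± 0.0317 (SD, n = 5 each). The ratio carries the FTH1 values already given and is a description. Control replicate 1, which stood apart in the FTL to FTH1 ratio, was the highest control here too. That library had the lowest mean correlation with its own condition among controls, at 0.958 beside 0.966 at the highest.

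TFR2 encodes transferrin receptor 2, a liver and erythroid protein that senses transferrin iron in the pathway that controls hepcidin. Its control libraries held 51.6, 38.3, 45.5, 37.6 and 39.6 normalized counts. The tunicamycin libraries held 32.1, 28.8, 31.2, 39.8 and 44.4. Tunicamycin replicates 1 to 3 lay under all controls and replicates 4 and 5 within them. The means were 42.6 ± 5.95 and 35.3 ± 6.58 (SD, n = 5 each), with a log2 fold change of -0.31 (SE 0.19, adjusted p = 0.214 by edgeR's quasi-likelihood test). It was -0.46 without the 2 shallowest libraries (tunicamycin replicates 4 and 5) and -0.20 without both libraries of replicate 1, and it passed in neither case. TFRC exceeded TFR2 by 29.0 ± 8.87 times in control and 35.5 ± 7.47 times in tunicamycin libraries (SD, n = 5 each). TFR2 (ENSG00000106327) lies at chr7:100620416-100642779 on the minus strand of GRCh38.

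SLC11A2 encodes DMT1, the proton-coupled carrier that moves ferrous iron out of the endosome. Control replicates 1 to 5 held 517, 537, 675, 633 and 648 normalized counts. Tunicamycin replicates 1 to 5 held 470, 547, 553, 515 and 519. Control replicates 3 to 5 lay above all tunicamycin libraries and control replicates 1 and 2 within them. The means were 602 ± 70.6 and 521 ± 32.6 (SD, n = 5 each). The log2 fold change was -0.21 (SE 0.09, adjusted p = 0.0917 by edgeR's quasi-likelihood test), lower in 4 of 5 pairs. It passed without control replicate 1 (-0.26, adjusted p = 0.0305 by edgeR) and with library size as the only scaling (-0.29, adjusted p = 0.0271), and in thinned counts it was -0.13 (adjusted p = 0.300). SLC11A2 (ENSG00000110911) lies at chr12:50979401-51028566 on the minus strand of GRCh38.

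CP encodes ceruloplasmin, a secreted copper ferroxidase that loads exported iron onto transferrin. The control libraries held 43.9, 37.5, 42.0, 45.7 and 23.4 normalized counts. The tunicamycin libraries held 19.4, 16.9, 1.89, 13.7 and 6.05. These came from 23, 17, 2, 10 and 3 counts, 55 in all. No value overlapped, although the lowest control (replicate 5) came close to the highest tunicamycin library (replicate 1), and 11.9% of all genes tested were separated with tunicamycin lower. CP fell by 1.66 on the log2 scale (SE 0.35, adjusted p = 0.00112 by edgeR's quasi-likelihood test), which the fit gives as 3.17-fold lower, and it was lower in 5 of 5 pairs. The exact two-sided permutation test without the pairs gave p = 0.00794, the smallest that this unpaired test can give. The change ranked at the 1.12th percentile of all genes tested. The coefficient of variation was 23.3% among control libraries and 63.8% among tunicamycin libraries, beside 15.2% and 30.2% from counting error alone. Tunicamycin replicates 3 and 5 rest on at most 3 counts each, so the size of the fall is uncertain. Leaving out each library in turn gave -1.97 to -1.35, with adjusted p from 0.000343 to 0.00379 by edgeR. Its exons overlap HPS3 on the other strand, and whether counting used strand is not given in the sources used here. HPS3 held 44.3 ± 10.3 normalized counts in control and 34.7 ± 6.43 in tunicamycin libraries (SD, n = 5 each), with a log2 fold change of -0.33 (adjusted p = 0.232 by edgeR's quasi-likelihood test). CP (ENSG00000047457) lies at chr3:149162410-149221829 on the minus strand of GRCh38.

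SLC40A1 encodes ferroportin, the only known carrier that exports iron from cells. Its control libraries held 6.03, 18.7, 13.1, 19.7 and 1.02 normalized counts. Its tunicamycin libraries held 12.7, 16.9, 15.1, 17.9 and 28.2. Tunicamycin replicate 5 was the highest and control replicates 1 and 5 the lowest, while the remaining libraries lay among each other. The log2 fold change was 0.54 (SE 0.43, adjusted p = 0.358 by edgeR's quasi-likelihood test), with means of 11.7 ± 8.09 and 18.2 ± 5.98 (SD, n = 5 each). Without control replicate 5 it was 0.27, without control replicate 4 it was 0.81, and without the 2 shallowest libraries it was 0.33, and it passed in none of these. The coefficient of variation among controls was 69.0%, beside 27.5% from counting error alone. SLC40A1 (ENSG00000138449) lies at chr2:189560590-189583758 on the minus strand of GRCh38.

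IREB2 encodes iron regulatory protein 2, which binds IREs when iron is scarce. Control replicates 1 to 5 held 568, 524, 530, 457 and 464 normalized counts. Tunicamycin replicates 1 to 5 held 522, 429, 433, 389 and 418. Each tunicamycin library lay below its own control, while the groups overlapped through tunicamycin replicate 1, the highest of its condition as control replicate 1 was of its own. The means were 509 ± 47.3 and 438 ± 50.0 (SD, n = 5 each), and the log2 fold change was -0.21 (SE 0.10, adjusted p = 0.0992 by edgeR's quasi-likelihood test). An exact two-sided permutation test without the pairs gave p = 0.0476. With the replicate number as a block it passed, at -0.22 (adjusted p = 0.0387 by edgeR). It also passed without tunicamycin replicate 1 (-0.29, adjusted p = 0.0243) and without both libraries of replicate 1 (-0.24, adjusted p = 0.0424), by the same test, and it was -0.14 (adjusted p = 0.373) without the 2 shallowest libraries. IREB2 (ENSG00000136381) lies at chr15:78437431-78501453 on the plus strand of GRCh38.

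HAMP, the hepcidin gene, had 4 counts in all 10 libraries together. They were 1 count in control replicate 3 and 3 counts in control replicate 5, and the tunicamycin libraries held 0. A count of 0 allows up to 3 counts per library, or 2.53 to 6.05 normalized counts at these depths, so both conditions were at or under that limit. HAMP did not pass the filter on low counts. Fitted without that filter it did not pass the test either (adjusted p = 0.184 by edgeR's quasi-likelihood test), and no fold is given, since a fold fitted to such counts depends on the prior count. A difference was not detectable at this depth. HAMP (ENSG00000105697) lies at chr19:35280716-35285143 on the plus strand of GRCh38.

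TMPRSS6 encodes matriptase-2, a liver protease that cuts hemojuvelin from the surface. Control replicates 1 to 5 held 1, 6, 8, 4 and 2 counts, and tunicamycin replicates 1 to 5 held 4, 1, 2, 0 and 0. The ranges overlapped at these few counts. The log2 fold change was -1.25 (SE 0.73, adjusted p = 0.201 by edgeR's quasi-likelihood test), and it was -1.94 without tunicamycin replicate 1, -2.18 (adjusted p = 0.05003) without both libraries of replicate 1 and -0.79 without the 2 shallowest libraries. TMPRSS6 (ENSG00000187045) lies at chr22:37065436-37109713 on the minus strand of GRCh38.

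**Figure D3:**
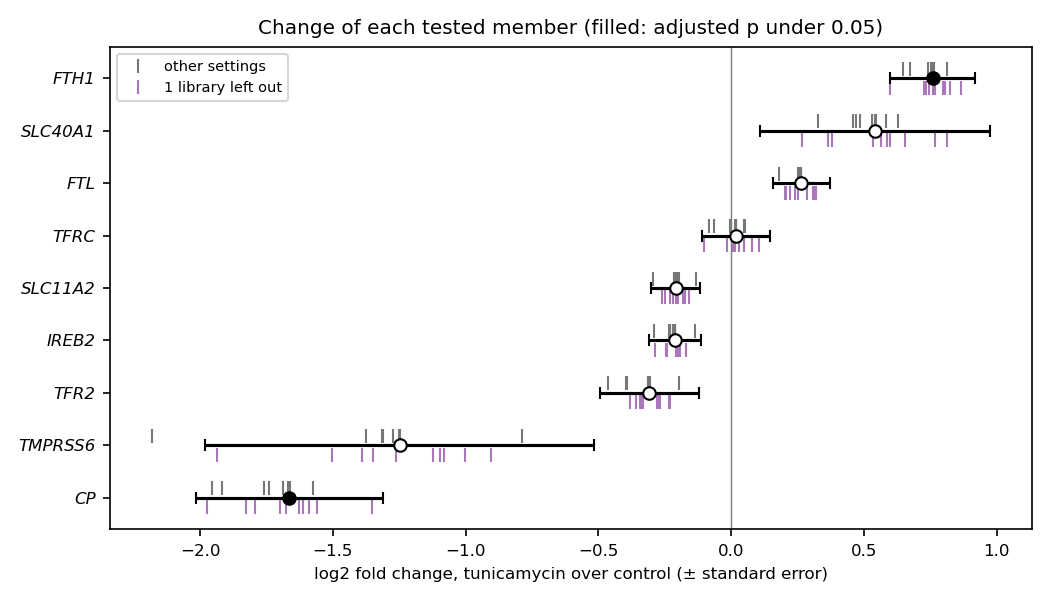
Log2 fold change of the 9 tested members, tunicamycin over control (horizontal axis), with its standard error. Filled points passed at an adjusted p under 0.05, grey ticks above each point are other settings, and purple ticks below are fits with 1 library left out. FTH1 stays to the right of 0 and CP to the left in every fit shown, and TFRC has ticks on both sides.

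The levels spanned from FTL to HAMP in the same order in both conditions except for CP and SLC40A1. In control cells the order of means was FTL, FTH1, TFRC, SLC11A2, IREB2, TFR2, CP, SLC40A1, TMPRSS6 and HAMP. FTL exceeded FTH1, FTH1 exceeded TFRC and TFRC exceeded SLC11A2 within each of the 5 control libraries. SLC11A2 and IREB2 were neighbours that did not separate, with SLC11A2 above in 4 of 5 libraries in each condition. TFR2 and CP did not separate in control cells either, with TFR2 above in 4 of 5. CP stood above SLC40A1 in 5 of 5 control libraries, and SLC40A1 stood above CP in 3 of 5 tunicamycin libraries.

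Of 6 wider lists of iron genes, 5 of 10, 4 of 7, 4 of 14, 7 of 12, 8 of 19 and 13 of 25 tested genes passed in either direction, in the order given from here on, beside 34.2% of all genes tested. Whether these shares differ from that background was not tested. Of 14 genes for the transferrin cycle, import, reduction and oxidation of iron, 10 were tested, 4 were higher and 1 lower, with a median log2 fold change of 0.21. SLC39A14 (ZIP14), a carrier of iron that is not bound to transferrin, went from 939 ± 227 to 2414 ± 432 normalized counts (SD, n = 5 each; log2 fold change 1.36). The ferrireductase STEAP3, which reduces iron for DMT1, rose by 1.06 on the log2 scale, and its relative STEAP1 rose by 1.15. TF, the transferrin gene, fell by 0.38 from 5744 ± 1124 to 4401 ± 310 normalized counts (SD, n = 5 each), with groups that overlapped. Its call was lost without control replicate 4 (log2 fold change -0.30, adjusted p = 0.0564 by edgeR). With the 2 shallowest libraries left out, a setting chosen after seeing the data, 2 genes of the list were lower and its median was 0.072. Without tunicamycin replicate 1 the median was 0.34, and without tunicamycin replicate 3 it was 0.093.

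Of 9 genes for storage, chaperoning and sensing, 7 were tested, with 1 higher, 3 lower and a median log2 fold change of -0.12. The median was not stable: it was -0.051 without tunicamycin replicate 4, -0.20 with library size as the only scaling and 0.0095 without the 2 shallowest libraries. NCOA4, the receptor that carries ferritin to the lysosome, went from 504 ± 55.4 to 386 ± 17.3 normalized counts (SD, n = 5 each; log2 fold change -0.38) without overlap. ACO1, which is iron regulatory protein 1 when it holds no iron-sulfur cluster, fell by 0.59. FBXL5, the ligase subunit that marks IREB2 protein for breakdown, fell by 0.76 (SE 0.24, adjusted p = 0.0201 by edgeR). The FBXL5 call was lost without control replicate 5 (adjusted p = 0.0543), tunicamycin replicate 2 (0.0523) or tunicamycin replicate 3 (0.0601) by edgeR. GLRX3, a glutaredoxin that handles iron-sulfur clusters, rose by 0.67.

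Of 20 genes of BMP and SMAD control, 14 were tested, 1 was higher and 3 lower, with a median log2 fold change of -0.20. HJV (listed as HFE2), BMP6, BMP2, ATOH8 and SOSTDC1 had 0 counts in all libraries. BMPR2, a BMP receptor, fell by 0.51 without overlap between groups. The target gene ID1 (-0.37), the co-receptor NEO1 (-0.34) and the receptor ACVR1 (0.87) passed narrowly, with adjusted p of 0.0347, 0.0388 and 0.0404 by edgeR. ACVR1 did not pass without control replicate 1, 2 or 5 or tunicamycin replicate 2, 3, 4 or 5, with adjusted p up to 0.108 by edgeR, nor with DESeq2 (0.115) or with library size only (0.0508). ID1 did not pass without control replicate 3, 4 or 5 or tunicamycin replicate 1, 2 or 4 (up to 0.103), and NEO1 without control replicate 1, 3, 4 or 5 or tunicamycin replicate 1, 2 or 3 (up to 0.0972). NEO1 also did not pass with no filter (0.063) or in thinned counts (0.129).

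Of 12 genes of cytokine and stress factor control of hepcidin, all 12 were tested, with 3 higher, 4 lower and a median log2 fold change of 0.01, which was -0.066 with library size as the only scaling and 0.14 without the 2 shallowest libraries. CREB3L3 (CREBH), an ER-anchored liver factor that is released by ER stress, went from 82.3 ± 13.6 to 22.8 ± 6.04 normalized counts (SD, n = 5 each; log2 fold change -1.81). STAT3, which carries the interleukin-6 signal to the HAMP promoter, fell by 0.62, and the kinase JAK1 fell by 0.37. CEBPB rose by 1.53, DDIT3 (CHOP), a stress factor, by 1.42 and the secreted cytokine GDF15 by 0.91. With the 2 shallowest libraries left out, 2 genes of this list were lower, and JAK1 did not pass (adjusted p = 0.0665 by edgeR).

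Of 20 genes of heme synthesis, breakdown and export, 19 were tested, 3 were higher and 5 lower, with a median log2 fold change of -0.12, which was -0.19 with library size as the only scaling and -0.031 without both libraries of replicate 1. HMOX1, the heme oxygenase that frees iron from heme, went from 373 ± 79.5 to 106 ± 11.7 normalized counts (SD, n = 5 each; log2 fold change -1.80) without overlap. HP, the plasma protein haptoglobin that binds free hemoglobin, fell by 1.09. FECH, which inserts iron into protoporphyrin, rose by 0.83, and FLVCR2 rose by 0.98. ALAD, an early enzyme of heme synthesis, fell by 0.44 (adjusted p = 0.0310 by edgeR). It did not pass without control replicate 4 or 5 or tunicamycin replicate 2, 3 or 4, with adjusted p up to 0.0845 by edgeR. Without control replicate 4, 3 genes of the list were lower.

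Of 26 genes of mitochondrial iron and iron-sulfur assembly, 25 were tested, 10 were higher and 3 lower, with a median log2 fold change of 0.19. ISCU, the scaffold on which iron-sulfur clusters are built, went from 141 ± 36.3 to 599 ± 147 normalized counts (SD, n = 5 each; log2 fold change 2.08). The mitochondrial chaperone HSPA9 rose by 1.34, and BOLA3, which acts late in cluster transfer, by 1.14. NUBP2 (-0.42), FDXR (-0.39) and CIAO1 (-0.35) were the 3 lower genes, with adjusted p of 0.0249, 0.0127 and 0.0222 by edgeR. CIAO1 did not pass without tunicamycin replicate 4 (0.0656) or in thinned counts (0.214), FDXR did not pass without both libraries of replicate 1 (0.0519), and NUBP2 did not pass without control replicate 1 or 2 or tunicamycin replicate 1, 2 or 4 (up to 0.0754). Without tunicamycin replicate 4, 1 gene of the list was lower and the median was 0.094, and with the 2 shallowest libraries left out it was 0.032.

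**Figure D4:**
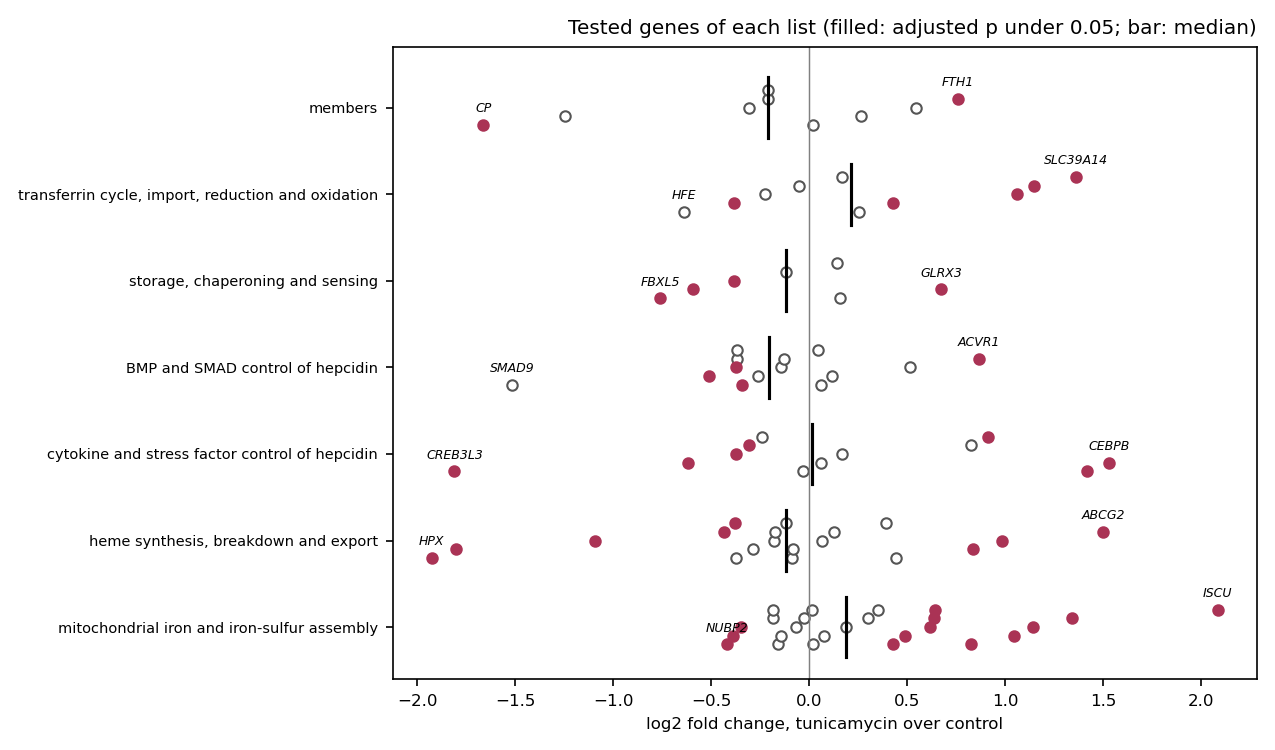
Log2 fold change (horizontal axis), tunicamycin over control, of each tested member and of each tested gene of the 6 pathway lists (rows). Filled points passed at an adjusted p under 0.05, open points did not, bars are list medians, and the names mark the lowest and highest gene of each row. ISCU, at 2.08, is the highest point, and the 6 list medians lie between -0.20 and 0.21.

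Some of these genes share exons with a neighbour. On the same strand these were TF (with SRPRB), FLVCR2 (TTLL5), JAK1 (LINC01359), HSPA9 (SNORD63), DDIT3 and BMPR2, the last ones with genes that have no symbol. On the other strand they were DDIT3, FBXL5, STEAP3, CEBPB, FLVCR2, JAK1 and BOLA3. Reads from a shared stretch cannot be told apart on the same strand, nor on the other strand where counting did not use strand. Without the 2 shallowest libraries FBXL5 (adjusted p = 0.0532), ALAD (0.0688), ACVR1 (0.112), CIAO1 (0.129) and NUBP2 (0.0599) did not pass by edgeR, and NEO1 (0.146) and NUBP2 (0.140) did not pass without both libraries of replicate 1.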

How the data were processed

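HepG2 cells, untreated or treated with tunicamycin, were measured by 3′ RNA sequencing (QuantSeq FWD) in 10 libraries. The authors processed the reads with the nf-core RNA-Seq pipeline at its default settings, on hg19 with Ensembl gene definitions, and deposited raw counts per gene, in a table of 32738 genes. The aligner, the counting program, the strand setting and the treatment of reads with several matches follow from those defaults, and are not named in the sources used here. Each column was matched to its library by name.

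Genes were filtered with filterByExpr (minimum count 2, minimum total 10), after the study's methods, which left 12733. The deposited counts were fitted in R 4.3.3 with edgeR 4.0.16, using TMM factors, condition as the only term and the quasi-likelihood F test. P-values were adjusted over all genes tested by the Benjamini-Hochberg method at 0.05. The study itself used DESeq2, which was an alternative here (DESeq2 1.42.0). The steps were tested on simulated data without a replicate effect. The changes set there were larger than most member changes here, and genes with few counts were given none. The simulation thus does not cover small changes or changes at low counts. Single members were also tested by exact two-sided permutation of log2 normalized counts with a pseudocount of 0.5. That test moved libraries freely between conditions and did not keep the replicate pairs. Normalized counts of members are given by library.

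The series text places the replicates on separate days, so the replicate number pairs a control with a tunicamycin library. Deviations of paired libraries from their group means correlated at 0.29, 0.0071, 0.052, 0.12 and 0.065 for replicates 1 to 5, over 10743 genes.

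The members and all gene lists were chosen with earlier results of these data known. The genes named are the 10 members, up to 3 higher and 3 lower genes of each pathway list with the largest change among those that passed and held at least 20 normalized counts on average, and HSPA5. SDF2L1, DNAJB9 and the genes at the ends of each row in the plot of lists were picked by their values. Alternatives were DESeq2, its size factors in edgeR, library size only, no filter, the default filter (minimum count 10, total 15), the replicate block, counts thinned to the smallest library, mitochondrial genes removed, and each library left out. Leaving out both libraries of replicate 1, or the 2 shallowest libraries, was chosen after seeing the data. The 2 shallowest were both tunicamycin libraries, so depth and the loss of treated libraries cannot be told apart in that setting. Positions and UTRs come from GENCODE release 44 on GRCh38, which lacks the table's identifier for NCOA4. The endothelial marker PECAM1 was not matched to a row. Results for some genes are not reported here.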

Additional observations from a re-analysis of the deposited data

Results flagged for a closer look

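Within groups of 5 libraries, 92 groups of values were checked for a single library far from the others, and 5 were picked out. A nominal rate of 1 in 20 would give 4.6. That number is a rough guide only, since the groups share libraries and include counts at 0 and ratios of members. The FTL to FTH1 ratio of control replicate 1 was 21.6, while the other controls lay between 7.39 and 10.5. HAMP in control replicate 5 was at 3.05 normalized counts, from 3 counts, while the other controls lay between 0 and 0.875. ISCU in tunicamycin replicate 1 was at 342 normalized counts, while the other tunicamycin libraries lay between 622 and 714. BOLA3 in the same library was at 387 normalized counts, against 637 to 686 in the others. FDXR in tunicamycin replicate 4 was at 477 normalized counts, against 319 to 351 in the others.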

How the results depend on the processing

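FTH1 and CP kept their direction and passed under every alternative run. With the replicate number as a block, FTL passed at 0.26 and IREB2 at -0.22, giving 2 members higher and 2 lower, and the block changed no other call among the 38 named genes tested. Without both libraries of replicate 1 the members were again 2 higher and 2 lower, with FTL at 0.26, IREB2 at -0.24 and TFRC turning to -0.084. Library size as the only scaling gave 2 members lower (SLC11A2 at -0.29), TFRC at -0.065, no higher gene (0) in the BMP and SMAD list and a transferrin list median of 0.13. Thinned counts put TFRC at -0.0043. DESeq2 called 0 BMP and SMAD genes higher, and with no filter the transferrin list median was 0.34. Without both libraries of replicate 1, 2 BMP and SMAD genes were higher and the transferrin list median was 0.33. In that setting 1 gene of the mitochondrial iron and iron-sulfur list was lower. Without the 2 shallowest libraries, 2 transferrin list genes, 2 cytokine list genes and 1 gene of the mitochondrial iron and iron-sulfur list were lower. There 0 BMP and SMAD genes were higher, and the transferrin and mitochondrial list medians were 0.072 and 0.032.

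When single libraries were left out, members numbered 1 to 2 higher and 1 to 2 lower, and log2 fold changes ranged from 0.20 to 0.32 for FTL, -0.26 to -0.16 for SLC11A2, -0.29 to -0.17 for IREB2 and -0.10 to 0.10 for TFRC, which was -0.10 and -0.02 without control replicates 1 and 2. Lower genes numbered 0 to 1 in the transferrin list, 1 to 3 in the BMP and SMAD list (higher 0 to 1), 3 to 5 in the heme list and 1 to 3 in the mitochondrial list. The transferrin median ranged from 0.093 to 0.34 and the mitochondrial from 0.094 to 0.20. TMPRSS6 had no value under the default filter or in thinned counts, and DESeq2 gave it no adjusted p. The cause of these shifts was not tested. HAMP and TMPRSS6 rest on 4 and 28 counts in all.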

Other observations

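Besides the members, 4 tested genes held the IRE letters in a 5′ UTR, and 1 of them was higher and 0 lower with tunicamycin by edgeR's quasi-likelihood test. That gene was PRPF18, a splicing factor, which went from 30.9 to 44.3 normalized counts (log2 fold change 0.52, adjusted p = 0.0322). A further 25 tested genes held the letters in a 3′ UTR, of which 4 were higher and 4 lower, with a median log2 fold change of 0.05, beside 17.6% higher and 16.6% lower of all genes tested, so the count was close to the background. FICD, an ER enzyme that modifies the chaperone HSPA5, rose from 30.7 to 126 normalized counts (log2 fold change 2.07), and GPC1, a cell surface proteoglycan, fell from 84.4 to 33.4 (log2 fold change -1.33). TF, of the transferrin list, was also 1 of the 4 lower genes (log2 fold change -0.38). These genes were chosen after their values were seen, and whether the letters act in any of them was not tested.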
